A study of Mus musculus with 10 samples.

Results

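The genes described here are 45 genes of a list that was chosen with earlier results of these data known. Most of them carry new secretory and membrane proteins into the endoplasmic reticulum (ER), glycosylate them or pass them to the Golgi. They were found by their symbols in the count table. All 45 were among its 55492 symbols, and all 45 passed the filter on low counts, which kept 21010 genes. They fall into 9 genes of protein translocation, 7 of N-glycosylation, 5 of the signal peptidase, 12 of the COPII coat and its assembly factors, 11 cargo receptors and retrieval receptors, and Hid1, a peripheral Golgi protein known for its part in making dense core granules.

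A nascent secretory protein enters the ER through the Sec61 channel, where the signal peptidase cuts off its signal sequence and the oligosaccharyltransferase attaches a sugar tree to asparagines. Folded cargo is then picked up by Sec24, packed into vesicles under the COPII coat of Sar1, Sec23, Sec24, Sec13 and Sec31, and sent to the Golgi. B cells enlarge this machinery when they turn into antibody-secreting cells.

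RNA-seq measured gene counts in mouse B cells from WT mice and from knockout (KO) mice, which carry Pcbp1 fl/fl and the B-lineage driver Mb1-Cre. Pcbp1 encodes an RNA-binding protein that binds cytosine-rich sequences. The 4 groups were untreated naive B cells of the spleen on day 0 (2 WT and 2 KO libraries) and induced germinal center B cells (iGCB) on day 4 (3 WT and 3 KO libraries). iGCB cells are splenic B cells grown on 40-LB feeders, a fibroblast line that displays CD40 ligand and BAFF to them. The labels leave out age, strain and sex, do not say if WT mice had Cre, and do not tie each library to an animal of its own. The p-values therefore reflect no more than the spread among these libraries, which may be technical in iGCB. In each naive group the spread includes a difference of sex, given below. Any part of Cre itself in the differences between KO and WT was not tested.

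Libraries held 33400672 to 63576147 counts, and libraries of 1 group differed by more than counting error. Pcbp1 was at 148, 327 and 326 CPM (counts scaled to a common library size) in iGCB WT and at 3.71, 1.96 and 2.59 CPM in iGCB KO. In naive cells it was at 152 and 83.9 CPM in WT and at 4.33 and 0.448 CPM in KO. Xist and Y-linked genes marked the libraries naive WT 1 and naive KO 1 as female and the remaining 8 as male. The summed level of 8 myeloid markers was 133 to 606 CPM in naive libraries and 29.5 to 86.2 CPM in iGCB libraries, and that of 6 erythroid markers was 26.3 to 217 CPM in naive and 0.306 to 2.33 CPM in iGCB libraries.

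In WT cells most of these genes were higher in iGCB. Of the 45 genes, 34 were higher and 5 lower in iGCB WT than in naive WT (edgeR quasi-likelihood test, Benjamini-Hochberg adjusted p under 0.05). Over all genes tested, 24.7% were higher and 31.7% lower. The median log2 fold change was 1.08 for the 45 genes and -0.25 for all genes. The summed level of the 45 genes was 3680 ± 95.6 CPM (SD, n = 2) in naive WT and 7040 ± 449 CPM (SD, n = 3) in iGCB WT, a ratio of 1.91. In the same comparison 6 of 8 myeloid, 6 of 6 T cell and 6 of 6 erythroid markers were lower, as were 5 of 8 B cell markers. Of 8 plasma cell markers 5 were higher and 1 lower, and of 6 germinal center markers 5 were higher and 1 lower. Of 12 fibroblast markers, for the feeder cells, 11 were tested, with 3 higher and 0 lower. Their sum was 6.23 and 14.4 CPM in the naive WT libraries and 39.7 to 77.5 CPM in iGCB WT. The part of all these cell types in the values above was not tested.

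By class, all 9 translocation genes rose in the fit of all libraries (median 1.47 on the log2 scale), and 4 of the 5 signal peptidase genes rose (median 1.82). Of the N-glycosylation genes, 5 of 7 rose (median 1.29), and of the cargo receptors 9 of 11 (median 0.88). The rise of Sec62 was not past the threshold with RLE factors, with the replicate block or without naive WT 1, iGCB WT 1 or iGCB WT 2 (adjusted p up to 0.145), nor was that of Sec63 with the block (adjusted p = 0.0574). The rises of Mcfd2, Tmed10 and the coat gene Sec13 were not past the threshold with the block either. For this comparison the block paired naive with iGCB libraries by number, a pairing that the values did not bear out. In fits without 1 library the lowest estimates were 0.48 for Lman2, 0.76 for Tmed3, 0.47 for Tmed10 and 0.48 for Sec13. With all libraries they were 0.78, 1.05, 0.57 and 0.77. The COPII coat was mixed, with 6 genes higher, 5 lower and a median of 0.49. Its summed level was 1120 and 1210 CPM in the naive WT libraries and 1060, 1150 and 1150 CPM in the iGCB WT libraries, so the groups overlapped. The summed level of the signal peptidase genes went from 309 ± 22.2 to 1050 ± 83.4 CPM, a ratio of 3.4.

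**Figure D1:**
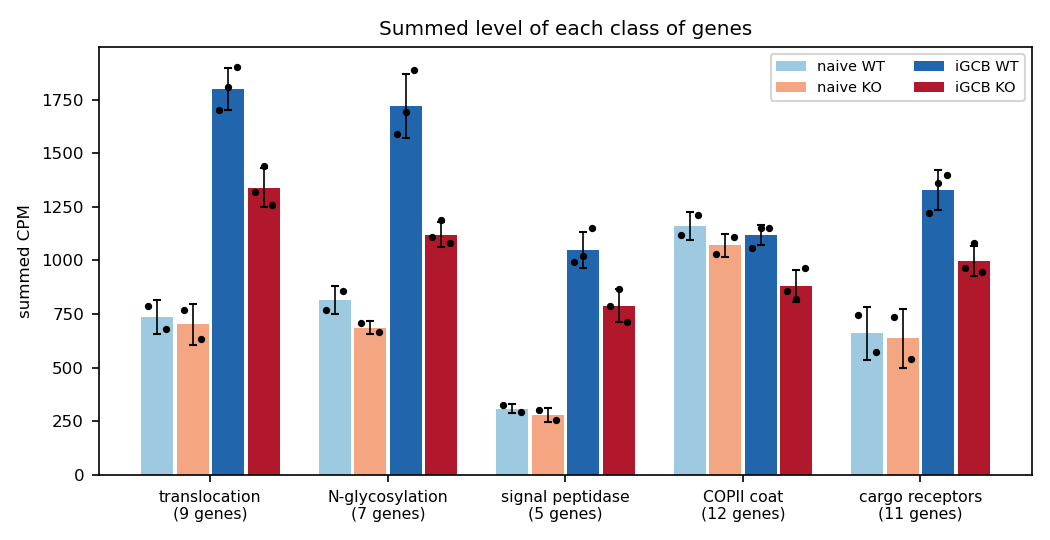
Summed level of each class of genes in CPM on the vertical axis, with bars for the mean of each group, error bars for the SD and points for single libraries (2 per naive group, 3 per iGCB group). Translocation, N-glycosylation, signal peptidase and cargo receptor sums are higher in iGCB WT than in naive WT, the COPII coat sums overlap, and in each class iGCB KO libraries lie below iGCB WT libraries.

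Sec61b, the beta subunit of the translocation channel, changed most among the 45 genes. It was at 7.53 and 6.4 CPM in naive WT and at 73.5, 85.2 and 121 CPM in iGCB WT (log2 fold change 3.74, SE 0.37, adjusted p = 1.84e-05). Spcs1, a small subunit of the signal peptidase, was at 20.4 and 12.1 CPM in naive WT and at 127, 106 and 145 CPM in iGCB WT (2.95, SE 0.32, adjusted p = 3.38e-05). The groups were far apart for both genes. Sec61g, the gamma subunit of the channel, was at 10.3 and 8.19 CPM in naive WT and at 42, 44.3 and 83.7 CPM in iGCB WT (2.61, SE 0.35, adjusted p = 0.000138). Its highest value came from the iGCB WT 3 library, which stood above the other iGCB WT libraries in several small subunits, by 0.96 on the log2 scale for Sec61g, 0.94 for Dad1, 0.77 for Ssr4, 0.74 for Sec13 and 0.61 for Sec61b.

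The largest fall was that of Sec16b, a paralog of the ER exit site organiser Sec16a, which was at 1.92 and 2.04 CPM in naive WT and at 0.584, 0.279 and 0.0987 CPM in iGCB WT (-2.63, SE 0.74, adjusted p = 0.011). The other genes that fell on activation were Sec24a (-1.40), Sec16a (-0.82), Sec24b (-0.67) and Sec31a (-0.60), all of them parts of the coat or of its exit sites. Without naive WT 2, Sec24a was at -0.51 and did not pass the test (adjusted p = 0.204), and with the replicate block Sec24b (adjusted p = 0.0639) and Sec16b (adjusted p = 0.117) did not pass it. The small GTPases that start coat assembly went the other way, with Sar1b at 1.41 (SE 0.21) and Sar1a at 1.16 (SE 0.14). Sec24a and Sar1b are neighbours on chromosome 11 that are read in opposite directions, with 52 bases between their outer bounds in GENCODE M21 (other annotated starts lie farther apart), and they moved in opposite directions on activation. Sec24a varied widely between the naive WT libraries, at 91.7 and 247 CPM.

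In iGCB cells the members that differed between KO and WT were all lower in KO. Of the 45 genes, 6 were lower and 0 higher in iGCB KO than in iGCB WT, where 0.923% of all genes tested were lower and 0.343% higher. As the list was chosen with earlier results of these data known, such shares do not test the 45 genes as a set. The 6 genes were Hid1, Sec24d, Rpn1, Sec23b, Sec61a1 and Stt3a. Log2 fold changes lay below 0 for 42 genes and above 0 for Tmed3 (0.14), Kdelr1 (0.10) and Sec62 (0.06), none of which passed the test. Of all 21010 genes tested, 9918 lay below 0. The median was -0.40 for the 45 genes and 0.00 for all genes. Without adjustment, 22 of the 45 genes and 2051 of the 21010 genes tested had a p under 0.05.

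The libraries gave the same picture. For 28 of the 45 genes each iGCB KO library lay below each iGCB WT library, for 0 each KO library lay above, and for 17 the groups overlapped. Over all genes tested, 10.3% lay wholly below and 10.2% wholly above, and the choice of the list limits this comparison too. The summed level of the 45 genes was 6600, 7030 and 7490 CPM in iGCB WT and 5050, 5390 and 4970 CPM in iGCB KO. The ratio of KO to WT was 0.73 over the 45 genes, 0.651 for N-glycosylation, 0.744 for translocation, 0.75 for cargo receptors, 0.751 for the signal peptidase and 0.787 for the COPII coat. In libraries of bulk RNA, fewer cells of a secretory type and less of these RNAs per cell cannot be told apart.

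**Figure D2:**
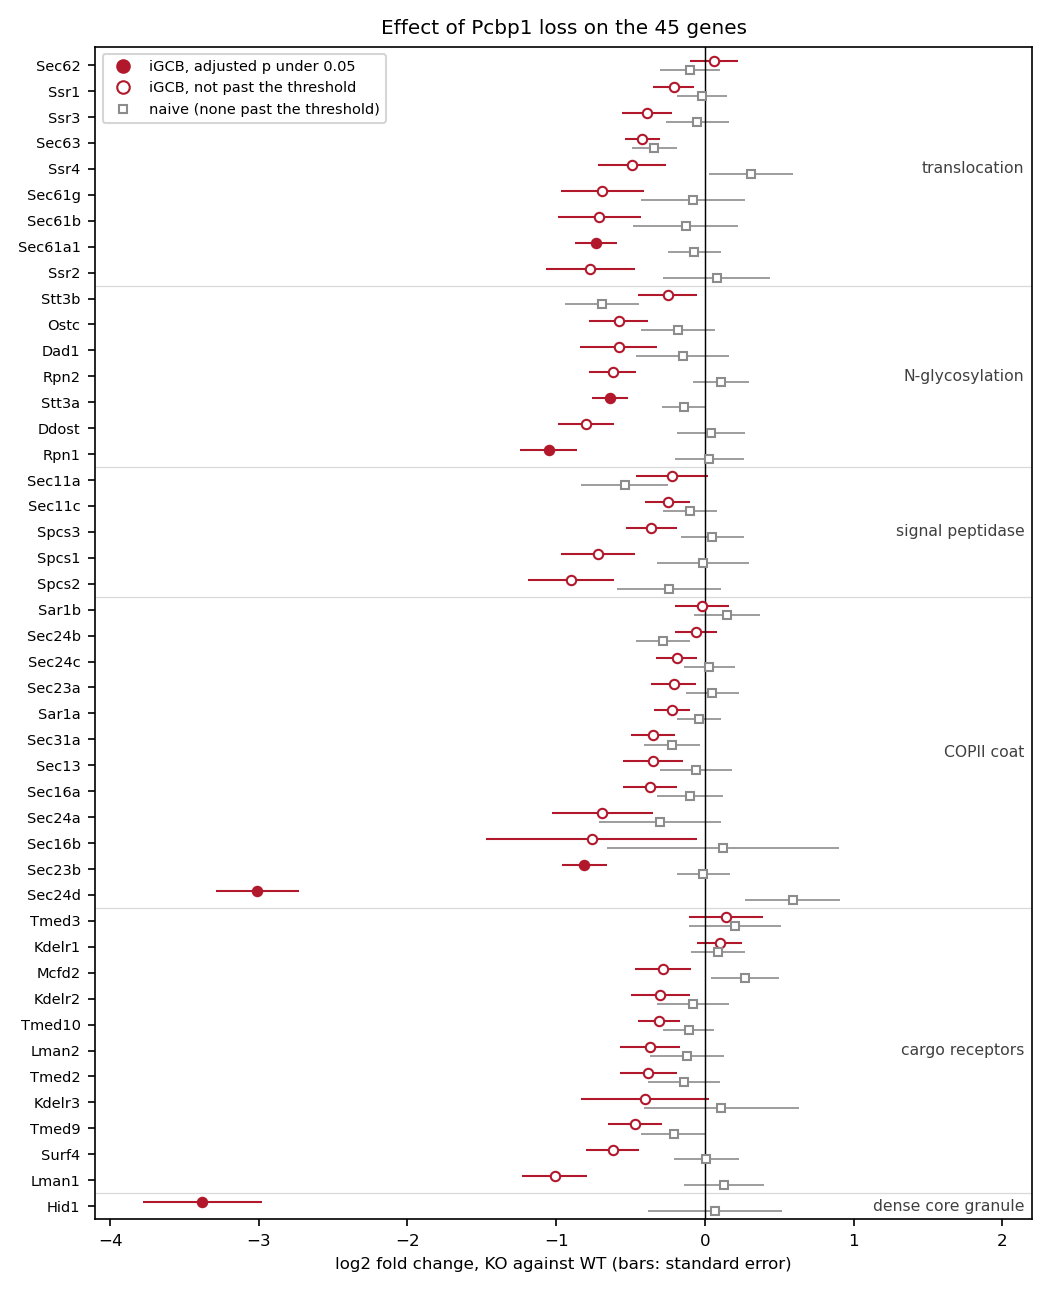
Log2 fold change of KO against WT on the horizontal axis with its standard error for each of the 45 genes, grouped by class (circles for iGCB, squares for naive cells). The 6 filled circles are the genes past the adjusted threshold in iGCB, Hid1 and Sec24d lie below -3, and 42 of the 45 circles lie left of 0, while the naive squares scatter on both sides.

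Sec24d had the largest change in the coat. It encodes 1 of the 4 Sec24 proteins that hold cargo in the vesicle and lies on chromosome 3 (123267455 to 123365641, plus strand, GRCm38, ENSMUSG00000039234.11). It was at 14.1 and 8.42 CPM in naive WT, at 21.8 and 12.1 CPM in naive KO, at 40.1, 41.5 and 35.9 CPM in iGCB WT, and at 5.07, 4.04 and 5.41 CPM in iGCB KO. The WT libraries rose on activation (log2 fold change 1.80, SE 0.31, adjusted p = 0.000637), while each iGCB KO library lay below each naive library of either genotype. The KO effect was -3.01 (SE 0.28, adjusted p = 0.0011) in iGCB and 0.59 (SE 0.32, adjusted p = 0.999) in naive cells, with log2 ratios of 0.63 in the female and 0.53 in the male naive pair.

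The difference between these KO effects was -3.61 (SE 0.42, adjusted p = 0.0243). Sec24d was the only one of the 45 genes that passed this test of the difference, where 0.019% of all genes were lower and 0.0143% higher. The call was lost when any 1 of the 6 iGCB libraries or the naive KO 1 library was left out. Over all 10 fits without 1 library the estimate was -4.03 to -3.12.

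**Figure D3:**
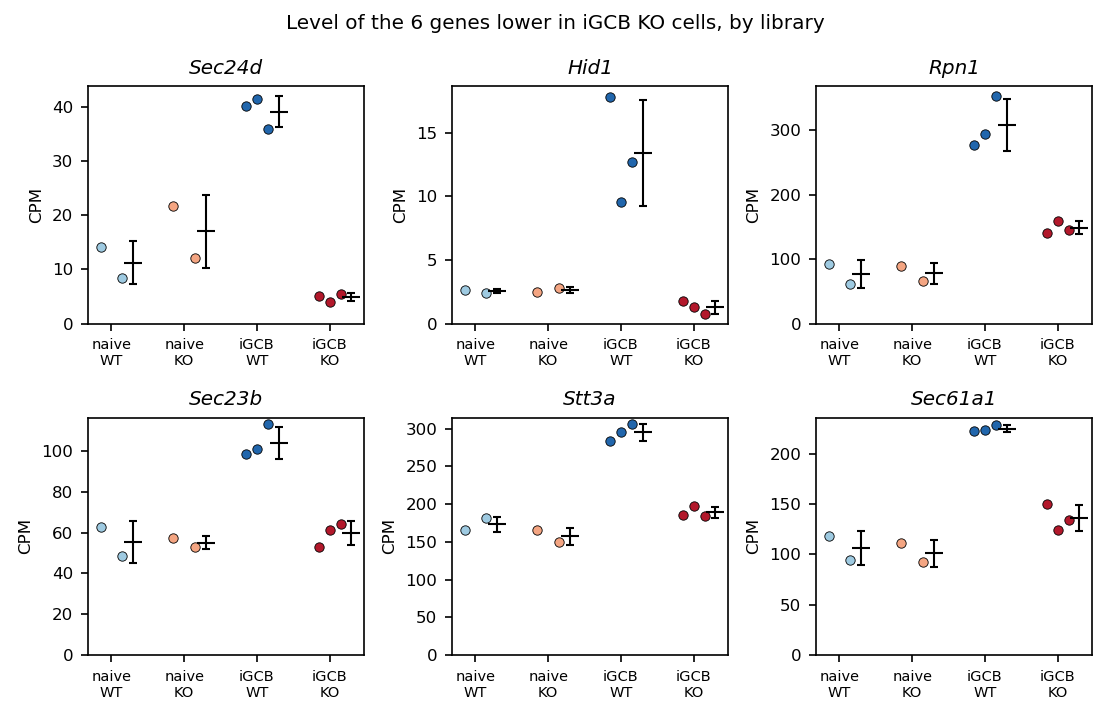
CPM (vertical axis) in each library for the 6 genes lower in iGCB KO, with the mean and SD of each group beside its points. In each panel the 3 iGCB WT points lie above the 3 iGCB KO points. For Sec24d and Hid1 the iGCB KO points, at 4.04 to 5.41 and at 0.765 to 1.8 CPM, also lie below the naive points.

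The other Sec24 genes changed less. In iGCB WT, Sec24c was at 206, 236 and 227 CPM, and in iGCB KO at 196, 181 and 209 CPM (log2 fold change -0.19, SE 0.14, adjusted p = 0.752). Sec24b was at 95.9, 103 and 93.1 against 93, 81.1 and 105 CPM (-0.06, SE 0.14, adjusted p = 0.989). Sec24a was at 67.6, 74.4 and 51.1 against 40.6, 32.2 and 47.2 CPM (-0.69, SE 0.34, adjusted p = 0.558). Neither Sec24b nor Sec24c separated the groups, and the Sec24a groups did not overlap although its change did not pass the test.

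The make-up of the family differed as well. Per length, as a share of the summed Sec24 RPKM (counts scaled by gene length and library size), Sec24d held 3.02% and 1.79% in the naive WT libraries and 5.22% and 2.75% in the naive KO libraries. Its share was 10.3%, 9.62% and 9.17% in the iGCB WT libraries and 1.57%, 1.39% and 1.53% in the iGCB KO libraries, with no overlap. Sec24c, the main form, took 55.5% ± 2.44 (SD, n = 3) in iGCB WT and 60.9% ± 1.69 (SD, n = 3) in iGCB KO. Sec24b took 25.3% ± 0.577 and 30.3% ± 0.937, and Sec24a 9.43% ± 1.48 and 7.3% ± 0.685. The summed Sec24 level was 63.8 ± 3.77 RPKM in iGCB WT and 51 ± 4.97 RPKM in iGCB KO.

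**Figure D4:**
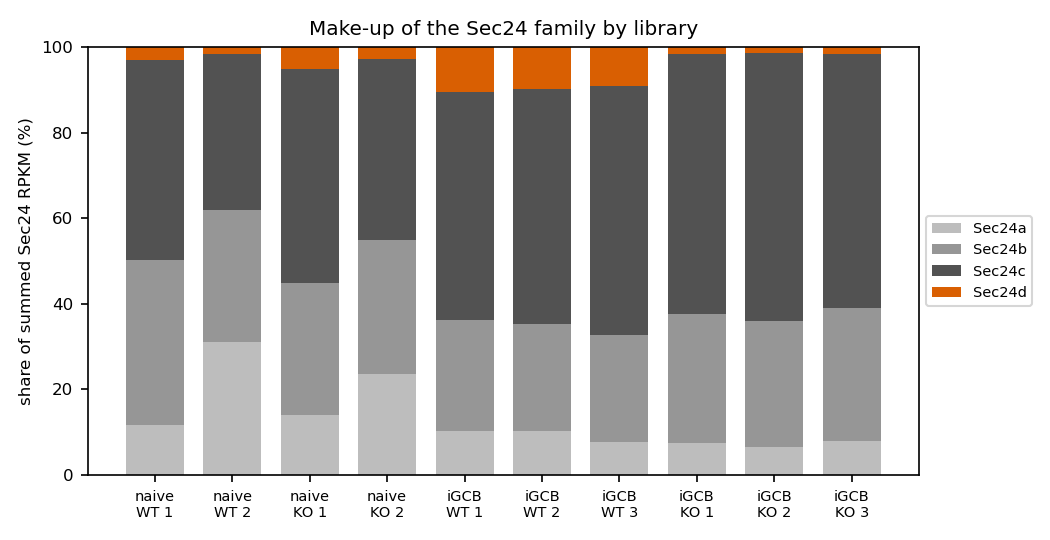
Share (%) of each Sec24 gene in the summed RPKM of the 4 genes on the vertical axis, 1 bar per library. Sec24d, at the top of each bar, holds 9.17% to 10.3% in iGCB WT and 1.39% to 1.57% in iGCB KO, and Sec24c and Sec24b hold most of each bar.

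Sec23b, which binds Sec24 and stimulates Sar1, was the other coat gene past the threshold (chromosome 2, 144556229 to 144590749, plus strand, ENSMUSG00000027429.16). It was at 62.9 and 48.4 CPM in naive WT and 57.3 and 53 CPM in naive KO. It was at 98.7, 101 and 113 CPM in iGCB WT and at 53.1, 61.2 and 64.4 CPM in iGCB KO (-0.81, SE 0.15, adjusted p = 0.0262). The iGCB KO libraries thus lay in or near the naive range, well under iGCB WT. Its paralog Sec23a was at 42.2, 45.6 and 39.8 against 36.3, 35.1 and 38.9 CPM (-0.21, SE 0.15, adjusted p = 0.743). Per length, Sec23b made up 65.2% ± 2.94 (SD, n = 3) of the Sec23 pair in iGCB WT and 55.4% ± 2.26 (SD, n = 3) in iGCB KO.

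The rest of the coat gave small values in iGCB KO. The log2 fold changes were -0.22 for Sar1a, -0.02 for Sar1b, -0.35 for Sec13 and for Sec31a, -0.37 for Sec16a and -0.76 (SE 0.71) for the rare Sec16b, and none passed the test. Sar1b was at 59, 59.3 and 51.5 CPM in iGCB WT and at 55.8, 59.9 and 51.9 CPM in iGCB KO, with overlapping groups.

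Among the N-glycosylation genes, Rpn1 and Stt3a were lower in iGCB KO. Rpn1 encodes ribophorin I, an oligosaccharyltransferase subunit (chromosome 6, 88084482 to 88105304, plus strand, ENSMUSG00000030062.7). It was at 91.7 and 60.9 CPM in naive WT and 89.3 and 66.4 CPM in naive KO. In iGCB it was at 277, 294 and 354 CPM in WT and at 140, 160 and 146 CPM in KO (-1.05, SE 0.19, adjusted p = 0.0218). Each iGCB KO value lay between the naive and the iGCB WT values. Stt3a, the catalytic subunit that works on chains still entering the ER (chromosome 9, 36729344 to 36767679, minus strand, ENSMUSG00000032116.18), was at 166 and 181 CPM in naive WT and 165 and 150 CPM in naive KO. In iGCB it was at 283, 296 and 306 CPM in WT and at 185, 198 and 184 CPM in KO (-0.64, SE 0.12, adjusted p = 0.0298).

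The other subunits of this enzyme had values below 0 that did not pass the test. Ddost was at 198, 217 and 253 CPM in iGCB WT and at 128, 138 and 119 CPM in iGCB KO (-0.80, SE 0.19, adjusted p = 0.0776). Rpn2 was at 284, 312 and 353 against 201, 217 and 201 CPM (-0.62, SE 0.16, adjusted p = 0.115). The groups did not overlap for either gene. Ostc and Dad1 were both at -0.58. The catalytic paralog Stt3b, which works largely on completed chains, was at 364, 376 and 344 against 319, 299 and 295 CPM (-0.25). Per length, Stt3a made up 27.8% ± 1.51 (SD, n = 3) of the Stt3 pair in iGCB WT and 22.6% ± 1.16 (SD, n = 3) in iGCB KO.

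Of the translocation genes, Sec61a1, the pore of the channel, was lower in iGCB KO (chromosome 6, 88503579 to 88518905, minus strand, ENSMUSG00000030082.14). It was at 118 and 94.3 CPM in naive WT, 111 and 92.1 CPM in naive KO, 223, 224 and 229 CPM in iGCB WT, and 150, 124 and 134 CPM in iGCB KO (-0.73, SE 0.14, adjusted p = 0.0354). The iGCB groups did not overlap, and the KO values lay between those of naive and iGCB WT cells. The small subunits had similar estimates with wider errors, -0.71 (SE 0.28) for Sec61b and -0.69 (SE 0.28) for Sec61g, and did not pass the test. Sec61b was at 51.7, 75.1 and 44.5 CPM in iGCB KO, where the KO 2 library overlapped WT 1.

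The Ssr genes encode the translocon-associated protein complex, which helps chains into the channel. Ssr2 was at 139, 143 and 163 CPM in iGCB WT and at 78.8, 100 and 81.8 CPM in iGCB KO (-0.77, SE 0.30, adjusted p = 0.383). Ssr4 was at -0.49 (SE 0.23), Ssr3 at -0.39 and Ssr1 at -0.21. Sec63, which helps Sec61 take up chains after their synthesis, was at 176, 168 and 155 against 132, 122 and 118 CPM (-0.42, SE 0.12, adjusted p = 0.179). Its partner Sec62 was at 133, 127 and 108 against 132, 135 and 117 CPM, with overlapping groups.

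No signal peptidase gene passed the test in iGCB KO. Spcs2 was at 159, 168 and 209 CPM in iGCB WT and at 94.7, 108 and 85.1 CPM in iGCB KO (-0.90, SE 0.29, adjusted p = 0.244). Spcs1 was at 127, 106 and 145 against 81.9, 87.2 and 60.7 CPM (-0.72, SE 0.25, adjusted p = 0.328). For both accessory subunits the groups did not overlap. The catalytic subunits had smaller values, -0.25 for Sec11c and -0.22 for Sec11a, and Spcs3 was at -0.36. Per length, Sec11c made up 82% of the Sec11 pair in iGCB WT and 81.7% in iGCB KO, so the pair kept nearly the same make-up.

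Of the cargo receptors, Lman1 came nearest to the threshold. It encodes ERGIC-53, a lectin that carries glycoproteins out of the ER. It was at 58.7 and 36.1 CPM in naive WT, 65.8 and 38.2 CPM in naive KO, 149, 157 and 161 CPM in iGCB WT, and 78.8, 72.7 and 80.7 CPM in iGCB KO (-1.01, SE 0.22, adjusted p = 0.0544). The iGCB groups were far apart. Its cofactor Mcfd2 was at -0.28 and the related lectin Lman2 at -0.37 (SE 0.20, adjusted p = 0.621). Per length, Lman1 made up 37.7%, 37.1% and 38.5% of the Lman pair in the iGCB WT libraries, against 28.1%, 25.6% and 30.8% in the KO libraries.

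Surf4, a receptor for soluble cargo, was at 183, 221 and 246 CPM in iGCB WT and at 134, 150 and 139 CPM in iGCB KO (-0.62, SE 0.18, adjusted p = 0.182). The p24 cargo receptors were at -0.47 for Tmed9, -0.38 for Tmed2, -0.31 for Tmed10 and 0.14 for Tmed3, with none past the threshold. The KDEL receptors bring escaped ER proteins back from the Golgi. Kdelr1 was at 87.9, 101 and 80.6 against 88.5, 110 and 89.5 CPM, Kdelr2 at 75.4, 83 and 75.4 against 57.3, 74.8 and 58 CPM, and the rare Kdelr3 at 1.93, 2.42 and 2.52 against 2.22, 1.41 and 1.56 CPM. The groups overlapped for Kdelr1 and Kdelr3 and did not for Kdelr2.

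Hid1 is on chromosome 11 (115347707 to 115367756, minus strand, ENSMUSG00000034586.14). It was at 2.63 and 2.42 CPM in naive WT and at 2.48 and 2.82 CPM in naive KO. In iGCB it was at 17.8, 9.58 and 12.7 CPM in WT and at 1.8, 1.29 and 0.765 CPM in KO. The 3 iGCB KO values lay below all 4 naive values. Hid1 rose on activation in WT (2.40, SE 0.44, adjusted p = 0.00102) and was lower in iGCB KO (-3.38, SE 0.40, adjusted p = 0.00319). The KO effect in naive cells was 0.07 (SE 0.45), and the difference between the effects, -3.45 (SE 0.59), did not pass the test (adjusted p = 0.112). That difference passed with DESeq2 (adjusted p = 7.85e-06) and, in edgeR, with no low-count filter (6.28e-05) and with the replicate block (0.0227). With RLE factors or plain library sizes it did not pass.

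In naive cells no member passed the test. Of the 45 genes, 0 were lower and 0 higher in naive KO, where 0.0333% of all genes were lower and 0.0143% higher by the same edgeR test. The targeted gene Pcbp1 itself did not pass that test in naive cells (-5.59, SE 0.82, adjusted p = 0.0561). The 0 calls among the members thus do not show that effects are absent. Without adjustment 2 of the 45 genes and 1166 of all 21010 genes had a p under 0.05. Those 2 were Stt3b, at 211 and 380 CPM in WT and 158 and 209 CPM in KO (-0.69, SE 0.25, adjusted p = 0.736), and Sec63, at 114 and 109 against 87.5 and 88.3 CPM (-0.34, SE 0.15, adjusted p = 0.863). The median log2 fold change was -0.05 both for the 45 genes and for all genes.

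Placed side by side, the summed level of the 45 genes in iGCB over that in naive cells was 1.91 in WT and 1.52 in KO. The corresponding ratios were 3.4 and 2.83 for the signal peptidase, 2.45 and 1.91 for translocation, 2.11 and 1.63 for N-glycosylation, 2.02 and 1.57 for cargo receptors, and 0.966 and 0.824 for the COPII coat. The difference of KO effects between the stages lay below 0 for 40 of the 45 genes and 9966 of all 21010 genes. Its median was -0.38 for the 45 genes and 0.04 for all genes. The choice of the list with earlier results known limits this comparison too.

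Levels of the 45 genes spanned a wide range per length. In iGCB WT, Ssr3 was highest at 134 RPKM, followed by Ddost at 105 and Stt3b at 85.6. Near the low end were Sec24d at 6.19, Sec24a at 6.03, Hid1 at 2.91, Kdelr3 at 1.62 and Sec16b at 0.0592 RPKM. The genes with the largest KO effects, Sec24d and Hid1, were thus among the least abundant of the 45.

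Promoter sequences are shown for the members that were lower in iGCB KO and had a window in the RefSeq table (GRCm38.p6). Hid1 and Sec61a1 were lower too but had no window. Each window runs from 250 bases before to 50 bases after the RefSeq start, 300 bases in all. Windows were found for 36 of the 45 genes. Capitals mark CCACG and TGACGTG on either strand, letters found in elements that Xbp1 and Atf6 bind, both transcription factors of the unfolded protein response. The windows are those of Sec24d (chr3:123267246-123267545, plus strand), Rpn1 (chr6:88084223-88084522, plus strand), Stt3a (chr9:36767573-36767872, minus strand) and Sec23b, which has windows at 2 starts (chr2:144555979-144556278 and chr2:144564649-144564948, plus strand). They are written 5′ to 3′ along the gene.
Sec24d: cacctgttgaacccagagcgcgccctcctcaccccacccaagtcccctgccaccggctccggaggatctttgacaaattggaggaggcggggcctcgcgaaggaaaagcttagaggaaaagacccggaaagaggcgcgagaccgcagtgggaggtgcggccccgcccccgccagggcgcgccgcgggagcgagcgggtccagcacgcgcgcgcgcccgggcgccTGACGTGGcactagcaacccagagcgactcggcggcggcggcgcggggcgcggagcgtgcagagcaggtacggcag
Rpn1: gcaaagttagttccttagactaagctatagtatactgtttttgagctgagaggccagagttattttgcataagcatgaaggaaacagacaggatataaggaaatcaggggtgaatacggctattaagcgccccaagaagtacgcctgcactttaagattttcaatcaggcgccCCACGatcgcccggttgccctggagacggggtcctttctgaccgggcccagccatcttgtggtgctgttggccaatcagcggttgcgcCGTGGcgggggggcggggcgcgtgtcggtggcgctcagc
Stt3a: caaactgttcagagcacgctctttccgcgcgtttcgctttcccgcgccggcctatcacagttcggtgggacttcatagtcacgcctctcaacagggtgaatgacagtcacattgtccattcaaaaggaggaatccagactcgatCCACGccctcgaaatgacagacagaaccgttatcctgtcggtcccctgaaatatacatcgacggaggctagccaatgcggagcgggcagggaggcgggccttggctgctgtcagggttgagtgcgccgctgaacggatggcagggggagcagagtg
Sec23b, upstream start: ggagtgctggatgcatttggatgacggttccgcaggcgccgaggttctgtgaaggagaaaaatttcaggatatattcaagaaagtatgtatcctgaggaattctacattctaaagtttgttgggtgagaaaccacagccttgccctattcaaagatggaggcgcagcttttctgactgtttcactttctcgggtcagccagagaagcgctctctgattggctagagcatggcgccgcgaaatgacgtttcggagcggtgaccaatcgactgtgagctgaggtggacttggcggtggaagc
Sec23b, downstream start: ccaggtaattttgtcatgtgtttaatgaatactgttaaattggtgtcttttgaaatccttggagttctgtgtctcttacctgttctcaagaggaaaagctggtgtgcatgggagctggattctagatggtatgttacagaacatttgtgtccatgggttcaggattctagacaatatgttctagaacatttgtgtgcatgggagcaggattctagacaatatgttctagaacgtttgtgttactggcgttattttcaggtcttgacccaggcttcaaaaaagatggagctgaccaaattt

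In Sec24d, TGACGTG stood at -26 to -20 from the start on the gene's strand and overlapped a CCACG on the other strand. Rpn1 held CCACG at -77 to -73 and, on the other strand, at 12 to 16. Stt3a held it at -106 to -102. Sec23b had neither motif in either window. Searched on both strands, TGACGTG was in 4 of the 40 windows of the members (10%), that of Sec24d and 3 others, and in 2.63% of the windows of all genes tested. Of those 3, the sites of Kdelr3 and Sec16b are shown with 15 bases on each side, with TGACGTG or its complement in capitals, for comparison with that of Sec24d.
Kdelr3: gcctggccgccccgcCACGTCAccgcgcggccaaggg
Sec16b: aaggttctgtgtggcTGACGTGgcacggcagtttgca

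The shorter motif, CCACG, was in 29 of the 40 windows (72.5%) and in 43.9% of the windows of all genes tested, without matching for base composition. The full ER stress element, CCAAT and CCACG with 9 bases between them, was in 0 of the 40 windows and in 0.129% of those of all genes tested. These matches describe letters only. Of the 4 members with TGACGTG, Sec24d was lower in iGCB KO and the other 3 did not pass the test, with log2 fold changes of -0.76 (Sec16b, SE 0.71), -0.40 (Kdelr3, SE 0.43) and -0.21 (SE 0.15).

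Other genes of the pathway were taken from lists of 114 genes outside the 45, also chosen with earlier results known. In iGCB KO, 7 of them were lower and 0 higher, with a median of -0.19, beside 0.923% lower and 0.343% higher over all genes tested. The signal recognition particle and its receptor had 1 of 10 genes lower, Srprb (-0.80, SE 0.17, adjusted p = 0.047), which anchors the receptor in the ER membrane. Among 5 further oligosaccharyltransferase genes Magt1, which serves complexes with Stt3b, was lower (-0.90, SE 0.14, adjusted p = 0.011). Of the other lists, none of 14 translocon and membrane insertion genes, 21 genes that build the lipid-linked sugar, 7 glucose trimming genes, 32 COPII regulators and tethers and 14 COPI genes passed the test.

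Within those lists the smallest p belonged to Tram2 (-0.87, SE 0.19, adjusted p = 0.0598) and Tram1 (-0.57), Alg2 (-0.36) and Alg10b (-0.18), Calr (-0.77, SE 0.18, adjusted p = 0.0738) and Uggt1 (-0.33), Uso1 (-0.72, SE 0.16, adjusted p = 0.0522) and Preb (-0.50), and Copg1 (-0.51, SE 0.13, adjusted p = 0.0913) and Arfgap3 (-0.63). Uso1 tethers ER vesicles to the Golgi, and Preb loads Sar1. The sugar-building list had a median of -0.15, nearer to 0 than that of the N-glycosylation genes among the 45, at -0.62. That contrast was not tested.

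The secretory regulators held 5 of the 7 lower genes, among 11 listed. Bhlha15, a factor of secretory cells, was at 31.8, 29.4 and 31.1 CPM in iGCB WT and at 1.68, 3.68 and 2.53 CPM in iGCB KO (-3.55, SE 0.40, adjusted p = 0.00211). Prdm1, the plasma cell factor Blimp-1, was lower by edgeR's test (-2.28, SE 0.37, adjusted p = 0.0144). Creb3l2, a membrane-bound factor known in mouse cartilage for driving Sec23a, was at 33.1, 32.3 and 29.8 against 9.35, 8 and 10.1 CPM (-1.80, SE 0.18, adjusted p = 0.00114). Sec23a itself, at -0.21, did not pass the test. Ern1 (-1.41, SE 0.24, adjusted p = 0.0188) and Xbp1 (-0.93, SE 0.18, adjusted p = 0.0323), which Ern1 splices in the unfolded protein response, were lower too and are named after their values were seen.

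Of the sums of cell type markers, that for plasma cells was lower in iGCB KO. The summed level of 8 plasma cell markers was 941 to 1260 CPM in iGCB WT and 621 to 805 CPM in iGCB KO, and all 8 had fold changes below 0. Slamf7, with a mean of 577 CPM in iGCB WT and 572 CPM in iGCB KO, was at -0.01. Of the 8, Jchain and Prdm1 passed the test. Tnfrsf17 was at 0 counts in all 3 iGCB KO libraries, and at 0.0584, 0.111 and 0.247 CPM in iGCB WT it was near the floor there too. Jchain was at 257, 178 and 350 CPM in iGCB WT and at 22.5, 31.1 and 28.1 CPM in iGCB KO. The sum of 6 germinal center markers, at 1010 to 1220 and 968 to 1100 CPM, overlapped between the groups, and that of 8 B cell markers was 4290 to 4740 CPM in iGCB WT and 4970 to 5350 CPM in iGCB KO. Of these B cell markers only Cd79a passed edgeR's test, and it went the other way. It was lower in iGCB KO (-1.03, SE 0.15, adjusted p = 0.00794) and in naive KO (-1.6, SE 0.18, adjusted p = 0.0126). The cause of its change was not tested. The sum of 12 fibroblast markers, for the feeder cells, was 39.7 to 77.5 CPM in iGCB WT and 31.4 to 70.4 CPM in iGCB KO, and the groups overlapped. The part of the plasma cell share in the lower levels of the 45 genes was not tested.

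The calls in iGCB KO stood up unequally to fewer libraries. Sec24d and Hid1 stayed past the threshold when any 1 of the 10 libraries was left out, with largest adjusted p values of 0.0153 and 0.0324. Rpn1 stayed past it in 1 of the 6 fits that left out an iGCB library (that without iGCB WT 1), and Sec23b, Stt3a and Sec61a1 in 0 of 6, with largest adjusted p values of 0.138, 0.149, 0.179 and 0.189. The median over the 45 genes was -0.44 to -0.36 in all settings. Lman1 passed the threshold in each of 6 other ways of fitting, at adjusted p values up to 0.0375. Reads could be shared with an overlapping gene on the other strand for over 10% of the exonic length of Spcs1, Ssr2 and Sec62, since the labels do not say if the counting used strand.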

How the data were processed

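Total RNA was made into mRNA libraries, per the labels' protocols. The deposited values were raw whole-number counts for each symbol, made by the authors with featureCounts against mm10, per the submitters' processing notes. Not given in the sources used here are the aligner, annotation, strand option and versions. Among counts from 1 to 20, 17.7% to 26.9% were odd, so reads of a pair may have been counted singly and counts are not independent fragments. Total counts per library were 33400672 to 63576147. Replicate libraries differed at 24.4 to 236 chi-square per degree of freedom, so none was a duplicate.

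Genes were filtered with filterByExpr (minimum count 10), scaled with TMM and fitted in 1 quasi-likelihood model of all 4 groups (6 residual degrees of freedom) in edgeR 4.0.16 with limma 3.58.1 and R 4.3.3. The 4 contrasts were KO against WT in iGCB and in naive cells, iGCB against naive in WT, and the difference of the KO effects. Two-sided p-values were adjusted by Benjamini-Hochberg over 21010 genes, with a threshold of 0.05. SE is the absolute log2 fold change over the square root of F. CPM and RPKM were computed from TMM-scaled totals, the latter on the union of exons in GENCODE M21. The fit was tested on simulated data.

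Replicate numbers did not pair the libraries of both stages. Within a stage, same-number deviations from the group mean correlated at 0.67 in naive cells and at 0.54, -0.18 and 0.02 in iGCB. With 2 libraries in a group, the naive value is the same for both pairs by construction. The naive pairs also matched by sex (number 1 female, number 2 male), which the main test did not use. Alternatives were DESeq2 1.42.0, RLE factors, plain library sizes, no filter, iGCB libraries alone, a replicate block and leaving out each library. The block paired KO with WT libraries of a stage by number. For iGCB against naive in WT it paired the stages by number, where deviations correlated at -0.14 and 0.15. Number 1 there joined a female with a male library, so a call lost under that block says little about the gene.

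The members and lists were chosen with earlier results of these data known. The rule named each member past the threshold in iGCB KO with all its values, up to 4 members with the largest change in other comparisons, and all members of a family. Of each further list it named up to 3 genes past the threshold, or the 2 with the smallest p. The sequence of a further promoter site is not reported here.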

Additional observations from a re-analysis of the deposited data

Results flagged for a closer look

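Of the results reported, 3 were picked out because the KO effect differed between the stages by a test of the difference itself (edgeR's quasi-likelihood test, Benjamini-Hochberg adjusted over all genes). The KO effect in iGCB minus that in naive cells was -3.61 on the log2 scale for Sec24d (SE 0.42, adjusted p = 0.0243), -2.04 for Creb3l2 (SE 0.28, adjusted p = 0.0421) and -3.65 for Jchain (SE 0.39, adjusted p = 0.0219). In each gene all 3 iGCB KO libraries lay below all 3 iGCB WT libraries. With 2 or 3 libraries in a group, single libraries were not tested as standing apart.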

How the results depend on the processing

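The count of members past the threshold in iGCB KO was 6, all lower. It was 12 with DESeq2, 12 with the replicate block, 16 with no low-count filter and 15 with the iGCB libraries alone, and the same 6 genes were among them each time. The genes lower over all those tested went from 194 to 511, 377, 551 and 593 in the same order. The number of genes lower over all those tested was 207 with RLE factors and 214 with plain library sizes. It was 26 to 145 without any 1 iGCB library and above 194 without either naive WT library. In each of these fits the count of members moved from 6 in the same direction. That count was 7 with RLE factors and 8 with plain library sizes. Leaving out 1 library gave 2 to 10 genes. It gave 2 without any 1 iGCB KO library, iGCB WT 2 or iGCB WT 3, 3 without iGCB WT 1, and 10 without either naive WT library.

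For the difference of KO effects, 1 member passed, 4 with DESeq2, 4 with no low-count filter and 3 when replicate numbers were paired as a block. These included Sec24d each time. Leaving out 1 library gave 0 to 1, and the gene was lost without any iGCB library or naive KO 1, with adjusted p up to 0.133.

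In naive KO 0 members passed under each alternative. For iGCB against naive in WT 39 passed, 32 with the replicate block and 35 to 39 without 1 library. Where leaving out a naive library left 1 in its group, that library was assumed to vary like the other groups. No direction reversed. Groups of 2 or 3 libraries limit the precision of these tests. The cause of these shifts was not tested.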
